A study of Mus musculus with 6 samples.

Results

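The genes described here are 30 genes of cholesterol and fatty acid synthesis and of the SREBP system that controls them. They were taken by gene symbol from the 24940 gene rows of one count table, with no threshold on a measured value. All 30 have a row, and all 30 passed the filter on low counts, as 12233 genes did in all. They fall into 5 roles: 5 genes of the SREBP machinery, 7 enzymes from acetyl-CoA to farnesyl diphosphate, 11 enzymes from squalene to cholesterol, 1 sterol carrier and 6 genes of fatty acid synthesis.

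RNA was sequenced from primary hepatic stellate cells, the pericytes of the liver sinusoids, which store vitamin A. The cells came from wild-type female C57BL/6JBomTac mice, whose age is not in the labels used here, and were treated 2 days after isolation. The forskolin group (3 libraries, A, B and C) received 5 µM forskolin in the existing medium for 3 h, and the DMSO group (3 libraries, A, B and C) received the same volume of the vehicle for the same time. Forskolin activates adenylyl cyclase and so raises cAMP. The labels do not say whether the letters stand for separate isolations or for pooled mice, so p-values here reflect no more than the spread among the 6 samples, and that spread may be technical.

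SREBPs are transcription factors made as membrane proteins of the endoplasmic reticulum. SCAP carries them to the Golgi, where they are cleaved so that a soluble part can enter the nucleus and bind sterol regulatory elements of the genes for sterol and fatty acid enzymes; INSIG proteins hold the SCAP complex back when sterols are plentiful. In liver, the products of Srebf1 are best known for fatty acid synthesis and that of Srebf2 for cholesterol synthesis, and stellate cells keep retinyl esters in lipid droplets of their own.

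Column totals were 6753746 to 10607997 counts in the A and B libraries, against 2770629 in forskolin C and 3025990 in DMSO C, so the C libraries give the least precise values. The correlation of log2 levels over tested genes, which are not independent, was 0.980 between forskolin A and B and 0.972 between DMSO A and B. Within its own group, a C library correlated with A or B at 0.925 to 0.930. Between forskolin and DMSO, the correlation was 0.953 for the A libraries, 0.960 for B and 0.881 for C. Nr4a1, an immediate early nuclear receptor, stood at 434, 413 and 517 CPM (counts per 1000000, on library sizes scaled by TMM) in forskolin A, B and C and at 42.6, 41.3 and 41.0 in DMSO A, B and C. Crem, a cAMP response modulator, stood at 145, 134 and 172 CPM with forskolin and at 13.3, 11.9 and 14.2 CPM with DMSO. Both cAMP-responsive genes, given as a check that the treatment acted, were high in every forskolin library and low in every DMSO library (edgeR adjusted p = 4.48e-07 and 1.43e-06). Summed over 10 stellate cell markers, the level was 1206 to 1383 CPM of the column total with DMSO and 1231 to 1481 with forskolin. The 3 myofibroblast markers summed to 271, 275 and 98.2 CPM in forskolin A, B and C and to 246, 205 and 112 in DMSO A, B and C, so that the C libraries were low in both groups. The 6 macrophage markers, mostly Cd68, summed to 12.1 to 18.3 CPM with forskolin and 18.4 to 21.6 with DMSO. Over 6 endothelial, 3 lymphocyte, 3 mesothelial and 3 adipocyte markers, each list summed apart, the sum was at most 9.58 CPM in any library. Krt7 and Upk3b, defining cholangiocyte and mesothelial genes, were at 0 counts in all 6, and the 4 cholangiocyte markers, mostly Spp1, summed to 6.11 to 19.8 CPM with DMSO and 8.66 to 38.6 with forskolin. Over 9 hepatocyte markers the sum was 19.5 to 29.9 CPM with DMSO and 55.8 to 70.0 with forskolin, and most of it was Trf, at 12.1 to 20.3 CPM with DMSO and 32.7 to 53.8 with forskolin; the other 8 markers summed to 7.44 to 9.62 CPM with DMSO and 6.39 to 23.1 with forskolin. The part of RNA from these other cell types in the results was not tested. In bulk RNA, fewer cells of a type and less RNA per cell cannot be told apart.

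The question put to the 30 genes was which of them differed after 3 h of forskolin. The genes for the SREBP retention factor INSIG1 and for the mevalonate pathway kinase PMVK were higher, and the fitted log2 fold changes of the other 28 lay between -0.40 and 0.53. In edgeR's quasi-likelihood test, with a gene called at a Benjamini-Hochberg adjusted p under 0.05 across the 12233 genes, 2 of the 30 genes rose, Insig1 and Pmvk, beside 2.22% of all tested genes called higher. None fell in that test, beside 0.572% of all tested genes called lower, and 0 were lower at an unadjusted p under 0.05 (6 were higher), where 644 of the 12233 tested genes were lower and 833 higher; DESeq2 and limma-voom with sample quality weights also gave 0 lower. With all 3 forskolin libraries above all 3 DMSO libraries there were 9 of the 30 genes, against 10.7% of tested genes, and with all 3 below there were 0, against 9.46%. The fitted log2 fold change, forskolin over DMSO, was above 0 for 20 of the 30 genes, beside 50.8% of all tested genes. It had a median of 0.21 and a range of -0.40 to 2.11, where the median over all tested genes was 0.00495.

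**Figure D1:**
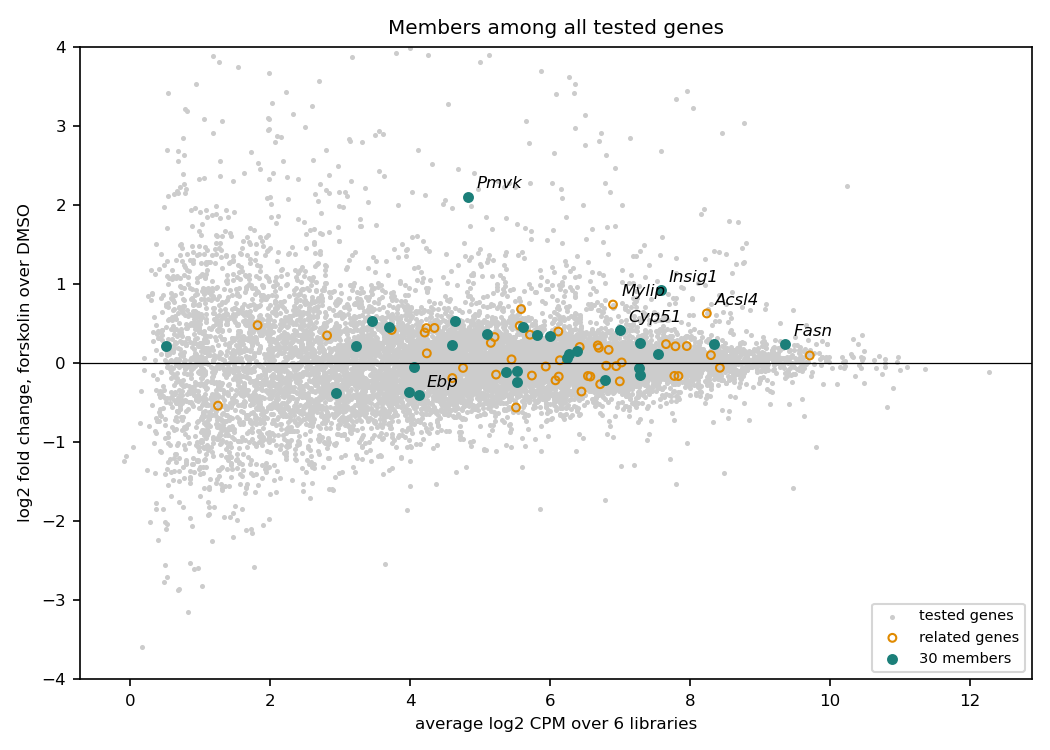
Log2 fold change (forskolin over DMSO) against average log2 CPM for all 12233 tested genes (grey), the 50 related genes as far as tested (open orange) and the 30 members (green); 29 genes lie beyond the vertical axis. Pmvk (2.11) and Insig1 (0.92) stand above the other members, which lie between -0.40 and 0.53.

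The letters before the transcription starts can be set beside these levels. RefSeq promoter windows (build GRCm38.p6, the same assembly as mm10) were found for 24 of the 30 genes, and for 23 of them a window begins at the start that the count table gives; the 250 bases upstream of that start were searched on both strands. Of the 23, 1 held the sterol regulatory element TCACNCCAC, against 1.05% of all 32851 windows. 4 held the E-box CACGTG, against 6.02%, and 15 held the NF-Y box CCAAT, against 33.8%. The palindromic cAMP response element TGACGTCA was in 0 of the 23, against 1.55%, and its shorter form TGACG, which the longer one contains, was in 7, against 17.8%. At the start in the count table, the windows of 7 genes held none of these letters: Srebf1, Insig2, Acat2, Dhcr7, Acly, Acaca and Elovl6. Srebf1, Insig2 and Dhcr7 also have RefSeq windows at other starts, and those hold matches. They are NF-Y boxes for Srebf1, NF-Y boxes and a TGACG form for Insig2, and an E-box and NF-Y boxes for Dhcr7. A match is a description of the letters only, and the absence of one says nothing beyond this window and these exact letters. A site spelled otherwise was not searched for. The windows of 3 genes follow, upstream to downstream on the gene's own strand, with every match in capitals. Insig1 (chr5:28071162-28071411, plus strand) is the called gene with a window at its start and holds, in order, the TGACG form on the opposite strand, an NF-Y box on the opposite strand and an E-box. Cyp51 (chr5:4104698-4104947, minus strand) had the smallest p of the 28 members that were not called and holds the TGACG form and an NF-Y box. Hmgcs1 (chr13:119690101-119690350, plus strand) holds the only match to TCACNCCAC among the 23. The TGACG form lies just upstream of that match on the opposite strand, and 3 NF-Y boxes are on the opposite strand too.
Insig1: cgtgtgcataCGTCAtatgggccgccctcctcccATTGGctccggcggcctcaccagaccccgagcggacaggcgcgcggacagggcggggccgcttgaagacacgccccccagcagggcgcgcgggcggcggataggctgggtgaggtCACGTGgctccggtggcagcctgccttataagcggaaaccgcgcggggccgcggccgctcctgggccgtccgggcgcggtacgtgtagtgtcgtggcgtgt
Cyp51: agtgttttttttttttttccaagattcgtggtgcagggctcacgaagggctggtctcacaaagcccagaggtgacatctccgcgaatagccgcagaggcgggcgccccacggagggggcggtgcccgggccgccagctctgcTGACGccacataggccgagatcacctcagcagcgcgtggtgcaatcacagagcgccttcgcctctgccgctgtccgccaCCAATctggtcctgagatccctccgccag
Hmgcs1: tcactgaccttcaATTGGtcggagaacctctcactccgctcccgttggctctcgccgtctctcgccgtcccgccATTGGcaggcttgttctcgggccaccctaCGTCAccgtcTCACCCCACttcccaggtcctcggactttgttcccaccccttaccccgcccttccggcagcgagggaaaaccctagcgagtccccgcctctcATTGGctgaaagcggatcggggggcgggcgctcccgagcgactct

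**Figure D2:**
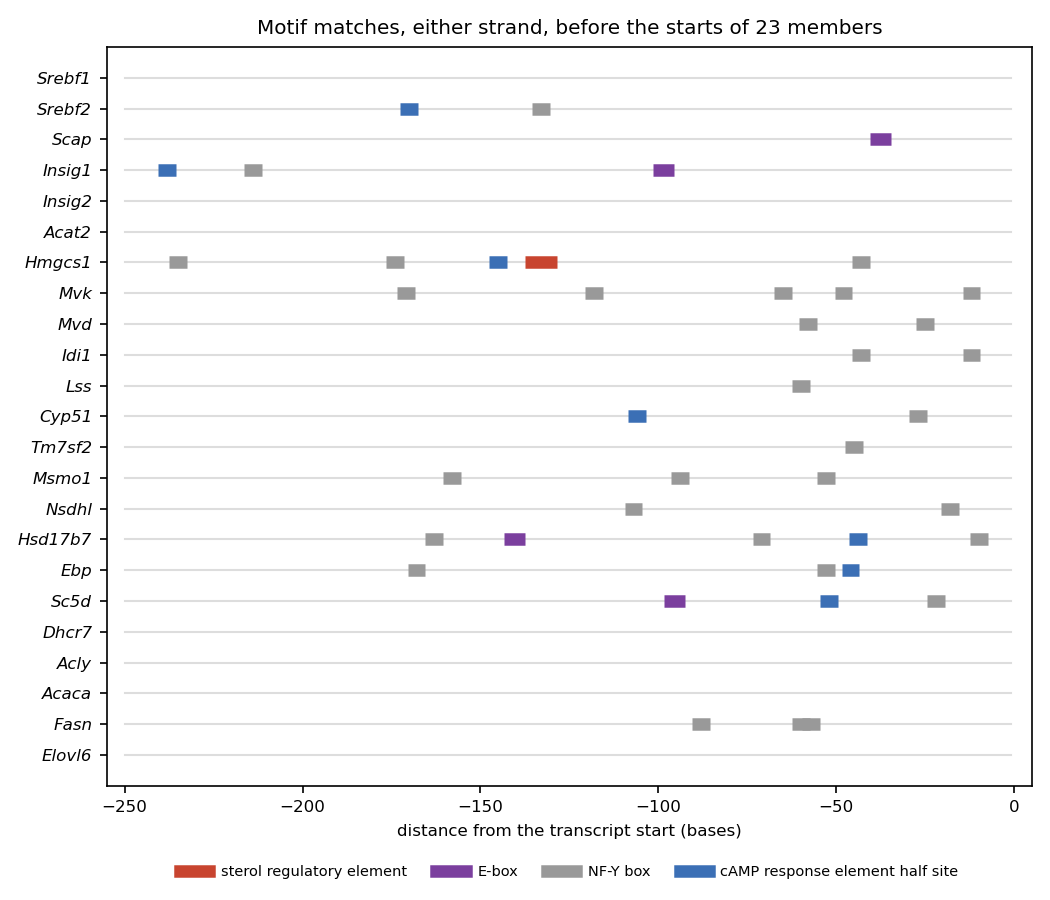
Position of motif matches, on either strand, in the 250 bases before the transcript starts of 23 members, in bases from the start. NF-Y boxes (grey) are in 15 windows, the shorter cAMP response element form (blue) in 7 and E-boxes (purple) in 4. The exact letters TCACNCCAC of the sterol regulatory element (red) are in Hmgcs1 alone.

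In the SREBP machinery, Insig1 was called, and the other 4 genes overlapped between the groups. Overlap does not show equal levels, and the 95% intervals were -0.56 to 0.26 for Scap and -0.53 to 0.30 for Insig2. Insig1, which encodes the retention protein and is itself a known SREBP target, stood at 245, 240.0 and 266 CPM in forskolin A, B and C and at 118, 121 and 159 CPM in DMSO A, B and C. The groups did not overlap, and the highest DMSO library, C, was well below the lowest forskolin library, B. Its level was 250.3 ± 13.7 CPM with forskolin against 133 ± 22.8 CPM with DMSO (SD, n = 3 each), a 1.89-fold rise (log2 fold change 0.92 ± 0.13 SE, 95% interval 0.63 to 1.21, edgeR adjusted p = 0.00290). Per kilobase of transcript it was the most abundant of the 5 machinery genes in DMSO, at 50.4 CPM per kilobase. Its paralog Insig2 lay between 31.1 and 42.9 CPM with forskolin and between 39.3 and 48.4 with DMSO, with a log2 fold change of -0.11 ± 0.19 (edgeR adjusted p = 0.911).

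The transcription factor genes showed no such difference. Srebf1 stood at 115, 104 and 84.7 CPM in forskolin A, B and C and at 111, 119 and 126 CPM in DMSO A, B and C. Forskolin C was the lowest of the 6, and forskolin A lay within the DMSO range. The fitted log2 fold change was -0.21 ± 0.13 (95% interval -0.51 to 0.09, edgeR adjusted p = 0.632). Srebf1 has promoters for more than one transcript form, and the count table sums exons under 1 symbol, so the forms are not told apart here. For Srebf2 the levels were 197, 187 and 199 CPM in forskolin A, B and C and 177, 188 and 171 CPM in DMSO A, B and C. Forskolin B and DMSO B were nearly level, and the groups overlapped there alone. The log2 fold change was 0.12 ± 0.10 (95% interval -0.10 to 0.33, edgeR adjusted p = 0.763), so that a change of the size of that of Insig1 lies outside the interval for either factor. Scap, the escort protein, lay between 155 and 172 CPM with DMSO and between 97.9 and 173 with forskolin, where C was the low library (log2 fold change -0.15 ± 0.18).

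**Figure D3:**
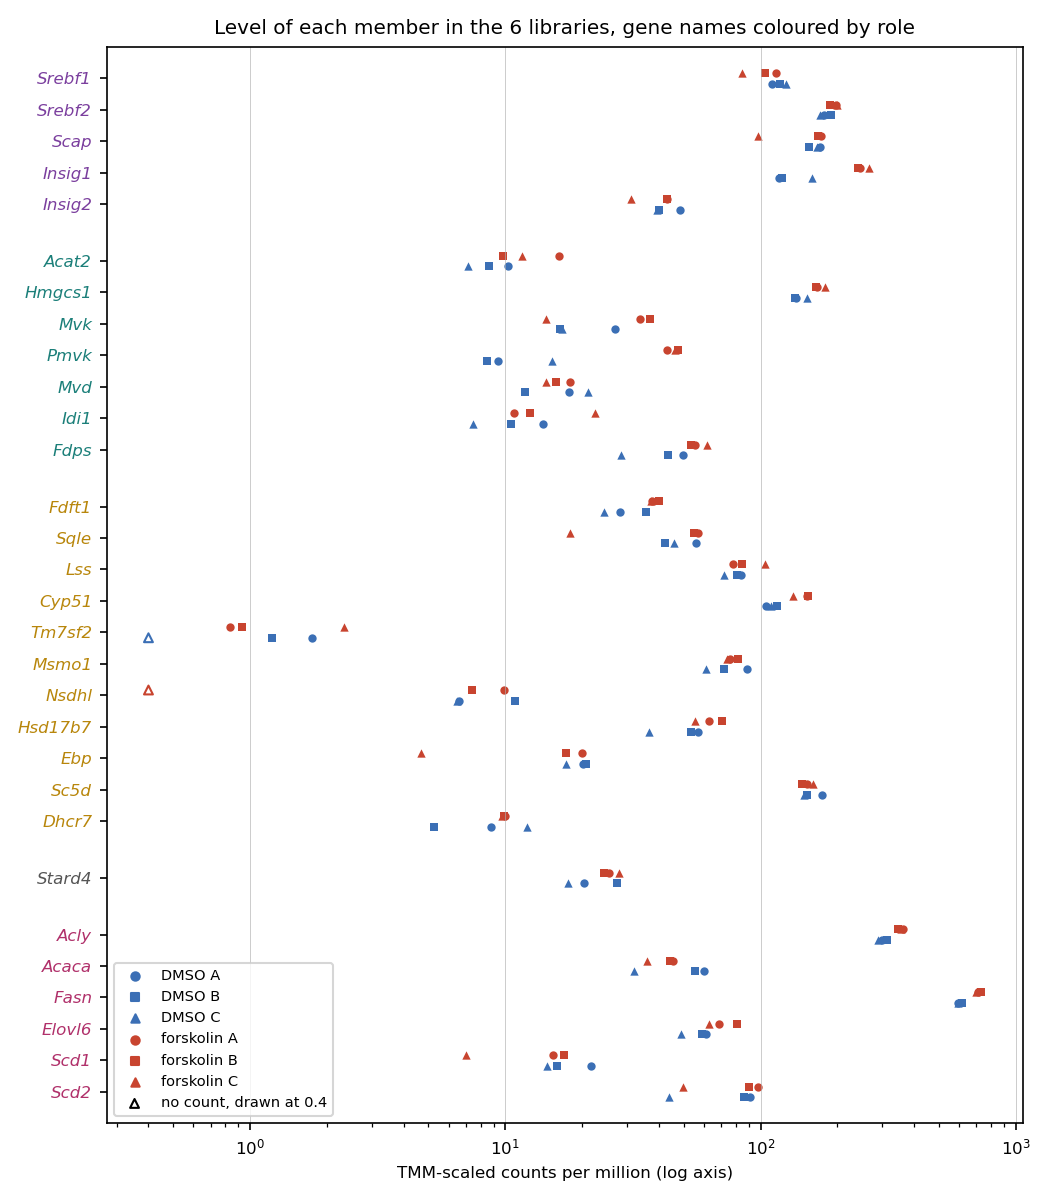
Level of each of the 30 members in the 6 libraries, in TMM-scaled CPM on a log axis, with DMSO in blue, forskolin in red, a marker shape per replicate letter, and gene names coloured by role; open symbols are libraries with no count. Insig1 and Pmvk are the genes whose red and blue points lie farthest apart without overlap, and forskolin C is the low point for Scap, Sqle, Ebp and Scd1.

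Among the 7 enzymes from acetyl-CoA to farnesyl diphosphate, Pmvk rose and the fitted change of 6 of the 7 was above 0, with a median of 0.46. Pmvk, which adds the second phosphate on the way from mevalonate to isopentenyl diphosphate, stood at 43.1, 47.7 and 46.3 CPM in forskolin A, B and C and at 9.33, 8.51 and 15.2 CPM in DMSO A, B and C. Every forskolin library was far above every DMSO library, and DMSO C was the highest of its group. The rise was 4.30-fold, from 11 ± 3.68 to 45.7 ± 2.32 CPM (SD, n = 3 each; log2 fold change 2.11 ± 0.25, 95% interval 1.55 to 2.66, edgeR adjusted p = 0.000985). In DMSO it was among the less abundant members, ranked 21 of 30 per kilobase of transcript. The count table places Pmvk at chr3:89459118-89469009, with a start that none of the RefSeq windows used here matches, and no other gene shares exon bases with it in GENCODE vM21.

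Hmgcs1, the cytosolic synthase that joins acetyl units into HMG-CoA, was the most abundant of this role per kilobase in DMSO, at 39.8 CPM per kilobase. Its levels were 166, 165 and 178 CPM in forskolin A, B and C and 137, 137 and 152 CPM in DMSO A, B and C. The groups lay apart, by a narrow margin between DMSO C and forskolin B. The log2 fold change of 0.26 ± 0.10 (95% interval 0.03 to 0.48) did not pass the test after adjustment (edgeR adjusted p = 0.325). Fdps, which makes farnesyl diphosphate, also lay apart, at 55.4, 53.3 and 61.4 CPM in forskolin A, B and C and at 49.9, 43.4 and 28.5 CPM in DMSO A, B and C. Here the DMSO group was spread widely, with C the lowest. Its log2 fold change was 0.46 ± 0.20 (edgeR adjusted p = 0.406), and 1124 of its exon bases are shared with the predicted gene Gm43738 on the same strand.

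The other 4 enzymes of this stretch overlapped between the groups. Mvk, the mevalonate kinase that acts just before Pmvk, lay between 14.4 and 36.9 CPM with forskolin and between 16.4 and 26.8 with DMSO; forskolin C was the low library and the other 2 were the highest of the 6 (log2 fold change 0.53 ± 0.34, edgeR adjusted p = 0.641). Acat2, the cytosolic thiolase, lay between 9.76 and 16.3 CPM with forskolin and between 7.12 and 10.2 with DMSO, at 0.53 ± 0.34, and its reads may be split with its near-identical neighbour Acat3. Idi1, the isomerase, had 10.8 to 22.5 CPM with forskolin and 7.46 to 14 with DMSO (0.45 ± 0.37), and without forskolin C its log2 fold change was 0.10. Mvd, the decarboxylase that follows Pmvk, was the nearest to no change, with 14.4 to 17.9 CPM with forskolin, 12 to 21.0 with DMSO and a log2 fold change of -0.05 ± 0.28. With 1 library left out in turn, the log2 fold change ran from 0.30 to 0.81 for Mvk, 0.29 to 0.70 for Acat2, 0.10 to 0.70 for Idi1 and 0.28 to 0.63 for Fdps, with 0 of these called. Summed over the 7 genes the level was 343, 341 and 349 CPM in forskolin A, B and C and 265, 236 and 248 CPM in DMSO A, B and C. The summed levels of the groups did not overlap; Hmgcs1 held the greatest share of each sum, and Pmvk, called by itself, gave the largest part of the gap between the group means. The sums of the 5 machinery genes, with 678 to 773 CPM with forskolin and 624 to 663 with DMSO, and of the 6 fatty acid genes, with 1204 to 1308 and 1021 to 1145, also lay apart, while those of the 11 enzymes from squalene to cholesterol overlapped, at 599 to 664 and 534 to 628. These gaps were not shared by all genes of a role. The mean of Insig1 went from 133 CPM with DMSO to 250.3 with forskolin, that of Fasn from 601 to 711 and that of Acly from 299 to 354. Fitted changes were below 0 for 3 of the 5 machinery genes and 2 of the 6 fatty acid genes.

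**Figure D4:**
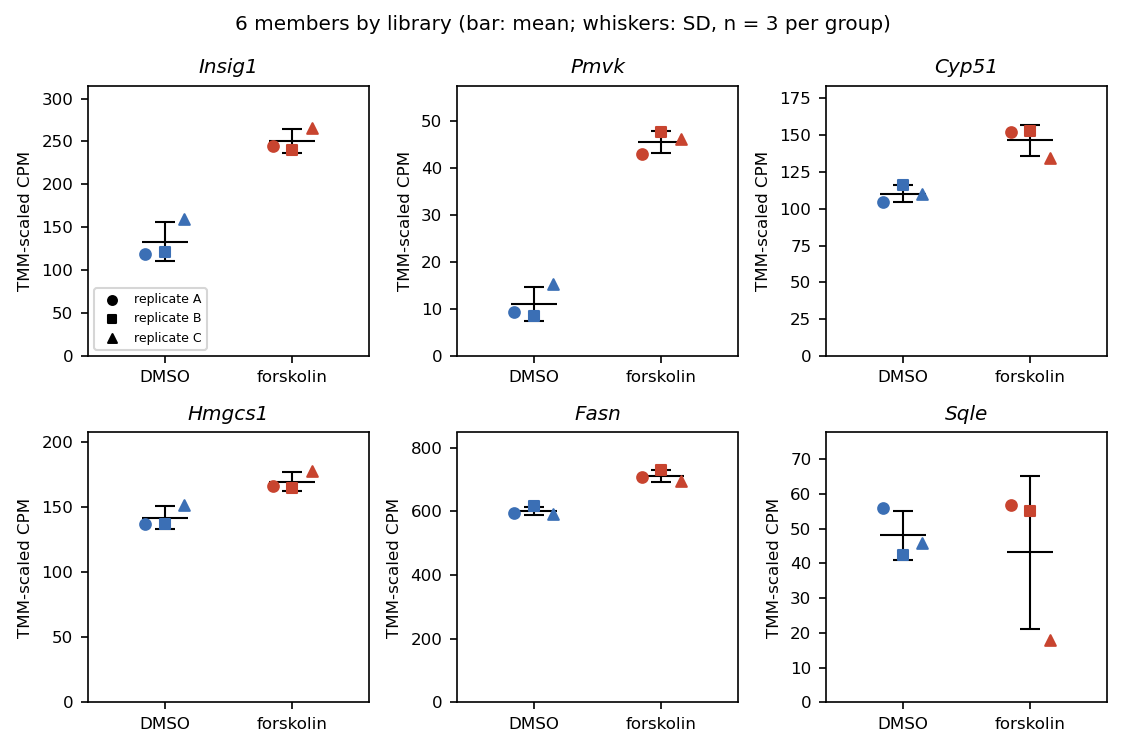
TMM-scaled CPM of Insig1, Pmvk, Cyp51, Hmgcs1, Fasn and Sqle by library, with the mean (bar) and SD (whiskers, n = 3) of each group. Pmvk goes from 11 to 45.7 CPM and Insig1 from 133 to 250.3, Cyp51, Hmgcs1 and Fasn lie apart by smaller steps, and Sqle has 1 low forskolin library.

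Of the 11 enzymes from squalene to cholesterol, 0 were called in edgeR's test in either direction. Of all tested genes 2.22% were called higher and 0.572% lower, so 0 calls among 11 genes is near those shares. Fitted changes were above 0 for 7 of the 11, with a median of 0.16. Cyp51, the lanosterol demethylase, came closest. It stood at 152, 153 and 134 CPM in forskolin A, B and C and at 105, 116 and 110 CPM in DMSO A, B and C. The groups did not overlap, and forskolin C was the nearest to the DMSO libraries. The log2 fold change was 0.41 ± 0.11 (95% interval 0.17 to 0.65), or 1.33-fold, with an edgeR adjusted p of 0.0929. With DESeq2 the adjusted p was 0.0402, and in edgeR without forskolin C it was 0.0300, so the call depends on the method and on that library. In GENCODE vM21, 166 exon bases of Cyp51 lie over the end of Akap9 on the opposite strand, which a kit that does not mark strand cannot separate; the log2 fold change of Akap9 was -0.21.

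Fdft1, squalene synthase, also lay apart, at 37.5, 40.1 and 37.3 CPM in forskolin A, B and C and at 28.1, 35.7 and 24.4 CPM in DMSO A, B and C. DMSO B came close to the forskolin libraries, which lay together. Its log2 fold change was 0.37 ± 0.20 (edgeR adjusted p = 0.522), and 774 of its exon bases overlap Ctsb on the other strand. Sqle, the epoxidase that follows, stood at 56.7, 55.0 and 17.9 CPM in forskolin A, B and C and at 56.0, 42.3 and 45.7 CPM in DMSO A, B and C. Forskolin C, with 46.5 counts, was far below the other 5 libraries, while forskolin A was just above and B just below the highest DMSO library, A. The log2 fold change was -0.10 ± 0.33 (95% interval -0.84 to 0.64, edgeR adjusted p = 0.964) with all 6 libraries. It turned to 0.22 without forskolin C, to 0.0231 without DMSO A and to 0.15 with limma-voom and sample quality weights, so no direction can be given. Sc5d, the sterol desaturase, was the most abundant of the 30 genes per kilobase in DMSO, at 70.6 CPM per kilobase. It stood at 152, 145 and 160 CPM in forskolin A, B and C and at 174, 153 and 148 CPM in DMSO A, B and C. The ranges overlapped, and the log2 fold change was -0.06 ± 0.11 (95% interval -0.30 to 0.18, edgeR adjusted p = 0.918).

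Those remaining in this stretch overlapped between the groups, with edgeR adjusted p-values of 0.520 to 0.981. Lss, the cyclase that makes lanosterol, lay between 71.8 and 104 CPM over the 6 libraries (log2 fold change 0.16 ± 0.14), and 381 of its exon bases overlap an antisense gene, 4930483K19Rik. Msmo1, the sterol methyl oxidase, lay between 61.0 and 88.1 CPM (0.06 ± 0.15), and Hsd17b7, a sterol ketoreductase, between 36.6 and 70.4 (0.35 ± 0.19). The low genes were the least certain. Ebp, the sterol isomerase, had 17.3 to 20.7 CPM with DMSO and 4.66 to 20.0 with forskolin, where C held 12 counts (-0.40 ± 0.40), and Dhcr7, the last reductase before cholesterol, had 5.27 to 12.2 CPM with DMSO and 9.72 to 10 with forskolin (0.21 ± 0.39). Nsdhl, a decarboxylating sterol dehydrogenase, had 95 and 80 counts in forskolin A and B and 0 in forskolin C, where a count of 0 allows up to 1.17 CPM (floor of 3 counts, counting error only), with 6.44 to 10.9 CPM in DMSO (-0.37 ± 0.76). Tm7sf2, a sterol reductase, was the least abundant member, with at most 11.5 counts in any library and 0 in DMSO C, which allows up to 1.02 CPM (0.21 ± 1.13). The 95% intervals were wide, -2.06 to 1.31 for Nsdhl and -2.31 to 2.74 for Tm7sf2, and without both C libraries the log2 fold change of Nsdhl was -0.0363.

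Stard4, a soluble carrier that moves cholesterol between membranes, stood at 25.4, 24.4 and 28.0 CPM in forskolin A, B and C and at 20.4, 27.3 and 17.6 CPM in DMSO A, B and C. DMSO B lay within the forskolin range and the other DMSO libraries below it. The log2 fold change was 0.23 ± 0.23 (95% interval -0.29 to 0.74, edgeR adjusted p = 0.827).

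In fatty acid synthesis, 0 of 6 genes were called in edgeR's test in either direction. That is near the shares of all tested genes, 2.22% called higher and 0.572% lower. Every forskolin library was above every DMSO library for 3 of the 6 (Acly, Fasn and Elovl6), beside 10.7% of all tested genes. Acly, which turns citrate into cytosolic acetyl-CoA for both pathways, was the most abundant of the 6 per kilobase in DMSO, at 68.1 CPM per kilobase. It stood at 361, 346 and 354 CPM in forskolin A, B and C and at 298, 312 and 289 CPM in DMSO A, B and C. Both groups were tight and lay apart, at 1.18-fold (log2 fold change 0.24 ± 0.10, 95% interval 0.01 to 0.47, edgeR adjusted p = 0.382). Fasn, the fatty acid synthase, stood at 708, 729.9 and 695 CPM in forskolin A, B and C and at 595, 617 and 593 CPM in DMSO A, B and C. Here too the spread within each group was small against the gap between them, and the log2 fold change was 0.24 ± 0.12 (95% interval -0.03 to 0.51, edgeR adjusted p = 0.483). Elovl6, the elongase of long saturated fatty acids, stood at 69.0, 81.0 and 63.0 CPM in forskolin A, B and C and at 61.0, 58.8 and 48.8 CPM in DMSO A, B and C. Forskolin C was close above DMSO A, and the log2 fold change was 0.34 ± 0.15 (edgeR adjusted p = 0.429).

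For the desaturase genes and Acaca, the groups overlapped. Scd1 stood at 15.4, 16.9 and 7.0 CPM in forskolin A, B and C and at 21.6, 16 and 14.6 CPM in DMSO A, B and C. Forskolin C was the lowest and DMSO A the highest, and the others lay together (log2 fold change -0.36 ± 0.34, edgeR adjusted p = 0.80). Scd2 stood at 97.9, 89.7 and 49.7 CPM in forskolin A, B and C and at 90.9, 86.0 and 43.7 CPM in DMSO A, B and C. In either group the C library lay far below A and B, and within each letter the groups were close (log2 fold change 0.11 ± 0.29, 95% interval -0.53 to 0.75, edgeR adjusted p = 0.951). Per kilobase of transcript, Scd2 was at 13.5 and Scd1 at 3.60 CPM per kilobase in DMSO; these are paralogs, so reads may be split between them. Acaca, the acetyl-CoA carboxylase, lay between 35.8 and 45.2 CPM with forskolin and between 31.9 and 60.1 with DMSO (-0.24 ± 0.23, edgeR adjusted p = 0.808).

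**Figure D5:**
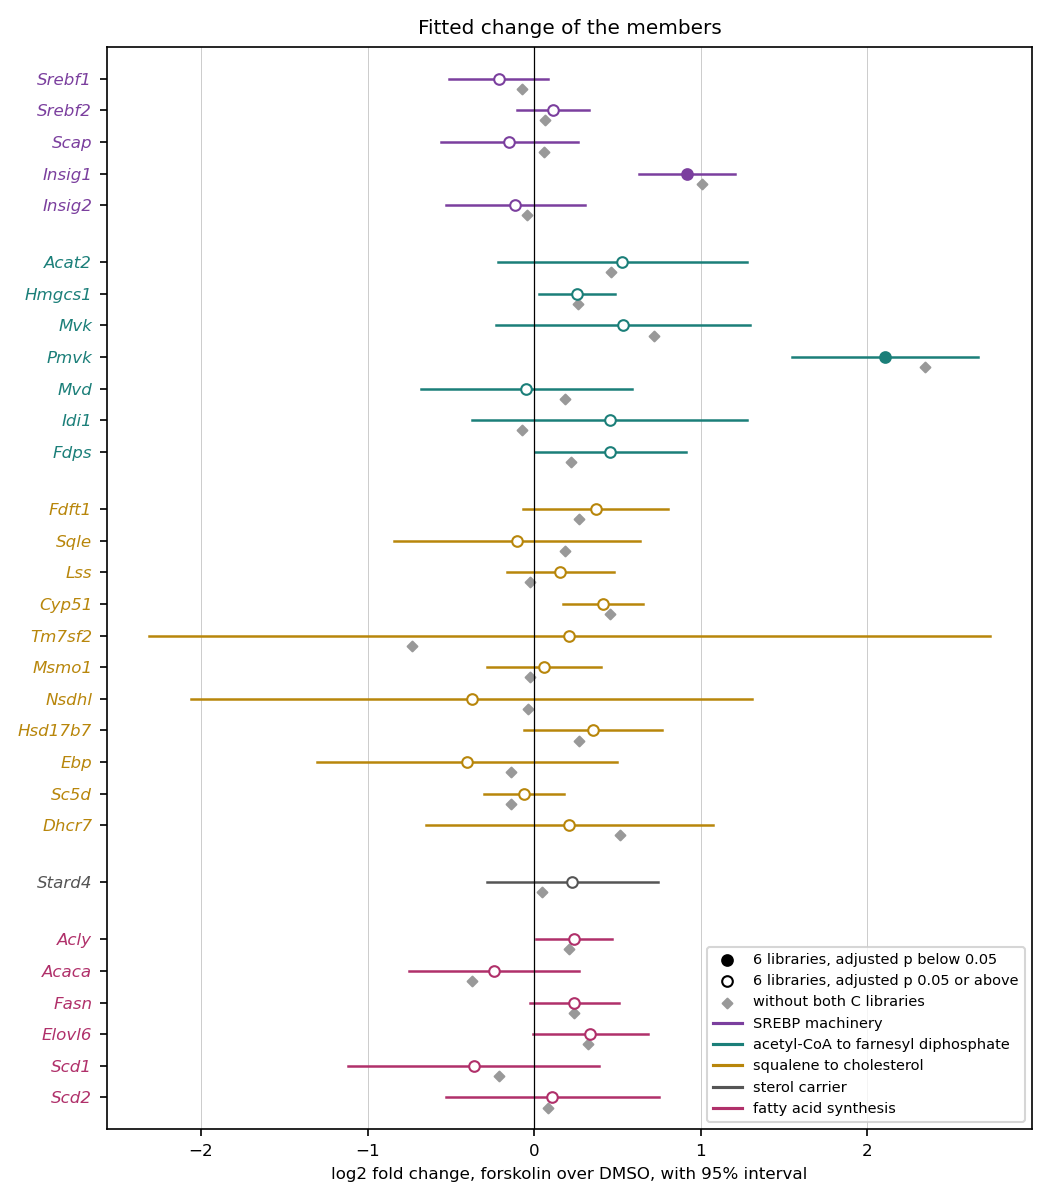
Fitted log2 fold change (forskolin over DMSO) of the 30 members with 95% intervals, coloured by role; filled circles are called at an adjusted p of 0.05 and grey diamonds are the fit without both C libraries. Insig1 (0.92) and Pmvk (2.11) are filled, and most other intervals cross 0.

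Without both C libraries, the shallowest of the 6, 6 of the 30 genes were called higher, beside 5.86% of the 12597 genes then tested, and 0 lower, beside 3.90%. Insig1 and Pmvk kept their calls, with log2 fold changes of 1.01 and 2.35. The 4 others were Cyp51 (0.46, edgeR adjusted p = 0.00165), Mvk (0.72, adjusted p = 0.0410), Hmgcs1 (0.27, adjusted p = 0.0421) and Fasn (0.24, adjusted p = 0.0438). This fit rests on 2 libraries a group, and the share of all genes called rose with it.

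Outside the 30 genes, 50 related genes were listed by function, of which 46 were tested, and 2 rose and 0 fell in edgeR's test, beside the 2.22% and 0.572% of all tested genes (5 were higher and 0 lower at an unadjusted p under 0.05; DESeq2 gave 0 lower and limma-voom with sample quality weights 1, Ggps1). Their median log2 fold change was 0.10. Acsl4, a ligase that activates polyunsaturated fatty acids, stood at 391, 383 and 329 CPM in forskolin A, B and C and at 246, 238 and 230.4 CPM in DMSO A, B and C. The groups lay apart, with a log2 fold change of 0.63 ± 0.11 (edgeR adjusted p = 0.0121). Mylip, a ubiquitin ligase known to be induced by the sterol receptor LXR, stood at 154, 145 and 148 CPM in forskolin A, B and C and at 86.6, 75.4 and 108 CPM in DMSO A, B and C. Its groups lay apart too, with a log2 fold change of 0.74 ± 0.14 (edgeR adjusted p = 0.0165). Leaving out any one of the A and B libraries of either group ended both calls, with edgeR adjusted p-values of 0.0718 to 0.0876 for Acsl4 and 0.0577 to 0.0958 for Mylip.

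By function, 0 of 10 genes for SREBP cleavage and INSIG turnover were called in edgeR's test, with fitted log2 fold changes of -0.56 to 0.19. In lists this short, 0 calls is near the 2.22% and 0.572% of all tested genes called higher and lower. The lowest of them was Mbtps2, the intramembrane protease that releases SREBPs, at 36.6 to 66.8 CPM with DMSO and 19.0 to 47.1 with forskolin (-0.56 ± 0.31, edgeR adjusted p = 0.542). Of 9 other sterol and isoprenoid enzymes 0 were called in that test. The list of 5 genes for sterol-sensing nuclear receptors and their partners includes Mylip, which is not a receptor and was the 1 called. The receptor genes Nr1h2, Nr1h3, Rxra and Rxrb were not called. Nr1h2, the widely expressed LXR gene, lay between 105 and 117 CPM in all 6 libraries (-0.03 ± 0.11). In fatty acid elongation, desaturation and supply, 22 of 26 genes were tested and Acsl4 was the 1 called. Fitted changes were above 0 for 17 of the 22, beside 50.8% of all tested genes, with a median of 0.21. In the other related lists they were above 0 for 4 of the 10, 4 of the 9 and 2 of the 5 genes. Acsl3, which like Acsl4 loads fatty acids onto coenzyme A, lay apart between the groups at 52.1 to 65.4 CPM with forskolin and 31.5 to 39.4 with DMSO, but was not called (0.68 ± 0.17, edgeR adjusted p = 0.0656). It passed in 6 of 13 other settings, among them DESeq2 (adjusted p = 0.0126) and edgeR without forskolin C (adjusted p = 0.0323). Acsl3, Mbtps2 and Nr1h2 were named after their values were seen.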

How the data were processed

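Exon counts per gene of the 6 libraries were analysed as 1 table with 24940 rows. Per the submitters' processing notes, STAR, HOMER and the mm10 build were used; the sources used here do not give versions, settings or the counting rule. Per the labels' protocols, the RNA was polyadenylated and the library kit was NEBNext Ultra, which does not mark strand. The expected counts deposited by the authors were not normalized and come in steps of 0.5, 24.2% of values not being whole; they were rounded to whole numbers with ties to the even number.

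Tests used R 4.3.3 with edgeR 4.0.16 (filterByExpr, TMM scaling, quasi-likelihood F test with robust dispersions, no covariate), with Benjamini-Hochberg adjustment over 12233 tested genes and calls at 0.05. The SE of a log2 fold change was taken as its size over the square root of F, and intervals are 95%. Marker sums use column totals. Totals of 2770629 to 10607997 make 3 counts, the floor used, worth 0.279 to 1.17 CPM; floors cover counting error only.

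The genes, roles, related genes and motifs were chosen with earlier results of these data known, though the rule that takes the genes uses their symbols alone. Values of every library are given for genes called or with groups that do not overlap, for Srebf1, Srebf2, Insig1, Hmgcs1, Sqle, Fasn, Scd1 and Scd2, and for the most abundant gene per length of each role; related genes are named when called. The values of 1 related gene are not reported here. 1 related gene, listed as Ufd1l, was matched by a RefSeq synonym. Promoter sequences are from RefSeq on GRCm38.p6, and exon overlaps from GENCODE vM21 with basic annotation. Replicate letters were not treated as pairs. Alternatives were RLE factors, library sizes alone, no filter, DESeq2 1.42.0, limma 3.58.1 (voom with sample quality weights), a block for the letter, leaving out single libraries, and leaving out both C libraries.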

Additional observations from a re-analysis of the deposited data

How the results depend on the processing

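Under 13 other settings, Insig1 and Pmvk were called higher in all 13, with log2 fold changes of 0.85 to 1.06 and 1.94 to 2.35 and adjusted p-values of at most 0.0321 and 0.0109, and 0 members were called lower in any. The count of members called higher was 2 or 3 in 12 of the settings, where the added gene was Cyp51, and 6 without both C libraries. Cyp51 passed in 5 of the 13 (adjusted p 0.00165 to 0.381 over all), and the related gene Acsl3 in 6 (0.00273 to 0.327). Related genes called higher were 4 without both C libraries and 0 to 3 with 1 library left out in turn; related genes called lower were 1 by limma-voom with sample quality weights (Ggps1) and 2 without both C libraries (Ggps1 and Mbtps2). Over all genes, 272 higher and 70 lower became 463 and 157 without the filter, 409 and 144 with DESeq2, 598 and 391 with limma-voom, 738 and 491 without both C libraries, and 162 to 372 and 21 to 113 with 1 library left out.

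With the replicate letter as a block, 455 genes were called higher and 194 lower, and 3 members were called higher, Cyp51 at an adjusted p of 0.0299. Deviations from the group means correlated at 0.048, 0.13 and 0.15 between libraries of the same letter A, B and C. Not every library correlated best with its own letter: forskolin A followed DMSO B at 0.10. The main fit was planned without the letter, and these correlations do not settle whether the letters are pairs.

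The fitted direction held in every setting for 18 members, and 12 members, all uncalled, reversed in 26 of 390 member and setting pairs. With limma-voom, Scap was at 8.27e-05, Mvd at 0.19, Sqle at 0.15 and Tm7sf2 at -0.35. Without both C libraries, Scap was at 0.0593, Mvd at 0.19, Idi1 at -0.0717, Sqle at 0.19, Lss at -0.0248, Tm7sf2 at -0.73 and Msmo1 at -0.0230. With 1 library left out in turn, the ranges were -0.28 to 0.0572 for Scap, -0.19 to 0.0093 for Insig2, -0.26 to 0.12 for Mvd, -0.33 to 0.22 for Sqle, -0.28 to 0.86 for Tm7sf2, -0.0495 to 0.21 for Msmo1, -0.92 to 0.0941 for Nsdhl, -0.10 to 0.0188 for Sc5d, -0.0696 to 0.50 for Dhcr7 and -0.13 to 0.32 for Scd2. The cause was not tested. The median of all genes moved most with library sizes alone, by -0.0365 on the log2 scale. Tm7sf2 and Nsdhl, each with a library at 0 counts, have the largest SEs of the members (1.13 and 0.76). Leaving out 1 library leaves 2 in its group, and the fit then rests on spread pooled over genes.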
